A study of Mus musculus with 3 samples.

Results

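The 28 genes described here code for the enzymes that build cholesterol from acetyl-CoA, for the proteins that switch those enzymes on and off, and for 3 genes of cholesterol transport and uptake. They were taken from a list of names, of which all 28 were found among the 32285 genes counted. The members were chosen by name, with the measured levels of Idi1, Sqle, Hmgcs1 and Cyp51 in view, which had led a Cd44-rich cluster of preadipocytes in these same libraries. Levels of the members in Cd44-rich cells are therefore a description and carry no test.

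Every cell makes cholesterol from acetyl-CoA through mevalonate, isoprenoid diphosphates, squalene and lanosterol. The transcription factor SREBP2, made from Srebf2, is held in the endoplasmic reticulum by the escort protein SCAP and the INSIG proteins while membrane cholesterol is high. When cholesterol is low the complex moves to the Golgi, SREBP2 is cut free, and it switches on the genes of the pathway. Insig1 is itself an SREBP target, which makes it part of a feedback loop. Adipose tissue is a large store of free cholesterol.

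The samples were the CD31- CD45- cells of the inguinal stromal vascular fraction of 3 WT C57BL/6J mice, all males of 8 weeks, with 1 library per mouse and no treatment, transgene or second condition. Depletion of CD31+ and CD45+ cells is meant to remove endothelial cells and leukocytes. Single cells were captured by droplet and their RNA counted as unique molecular identifiers (UMIs), so that levels are given as CPM, the counts of a gene scaled to the total UMIs of the summed cells. The cells were divided by UMIs of 6 other genes into 3 classes, and cells that met no class were not in the comparisons. Progenitors had at least 3 UMIs of Dpp4 and Pi16 together and at most 1 of Icam1 and Fabp4. Preadipocytes had at least 4 UMIs of Icam1 and Fabp4 together and at most 1 of Dpp4, and regulatory cells had UMIs of both Clec11a and Fmo2 and at most 1 of Fabp4 and of Dpp4. Where 3 values of a class are given, they are those of mice 1, 2 and 3.

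Promoters are shown for Hmgcs1, Nsdhl and Sc5d, which were higher in preadipocytes, and for Pmvk and Mylip, which were lower, because SREBP2 works through short motifs near the start of its targets. Each line holds the 250 bases before the RefSeq start (GRCm38.p6), 5′ to 3′ on the strand of the gene. Capitals mark the sterol element searched for (TCACNCCAC), the NF-Y motif (CCAAT, which reads ATTGG on the other strand) and the Sp1 motif (GGGCGG, which reads CCGCCC on the other strand). The windows lie at chr13:119690101-119690350 (plus strand) for Hmgcs1, chrX:72918271-72918520 (plus strand) for Nsdhl, chr9:42264301-42264550 (minus strand) for Sc5d, chr3:89454291-89454540 (plus strand) for Pmvk and chr13:45389492-45389741 (plus strand) for Mylip.
Hmgcs1: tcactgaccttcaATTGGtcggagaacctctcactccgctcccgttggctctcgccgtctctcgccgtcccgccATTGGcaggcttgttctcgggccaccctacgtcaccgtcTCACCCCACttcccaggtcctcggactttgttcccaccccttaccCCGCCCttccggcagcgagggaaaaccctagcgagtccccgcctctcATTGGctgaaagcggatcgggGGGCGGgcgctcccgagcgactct
Nsdhl: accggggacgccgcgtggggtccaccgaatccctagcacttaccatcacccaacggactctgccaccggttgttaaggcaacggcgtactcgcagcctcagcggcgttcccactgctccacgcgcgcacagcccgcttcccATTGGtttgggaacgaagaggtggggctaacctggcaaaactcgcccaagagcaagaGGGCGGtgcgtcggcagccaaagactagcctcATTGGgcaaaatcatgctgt
Sc5d: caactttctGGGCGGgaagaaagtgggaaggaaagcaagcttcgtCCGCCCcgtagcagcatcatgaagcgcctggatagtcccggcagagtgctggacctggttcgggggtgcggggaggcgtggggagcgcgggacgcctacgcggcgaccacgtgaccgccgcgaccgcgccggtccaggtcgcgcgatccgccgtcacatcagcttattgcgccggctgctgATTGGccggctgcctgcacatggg
Pmvk: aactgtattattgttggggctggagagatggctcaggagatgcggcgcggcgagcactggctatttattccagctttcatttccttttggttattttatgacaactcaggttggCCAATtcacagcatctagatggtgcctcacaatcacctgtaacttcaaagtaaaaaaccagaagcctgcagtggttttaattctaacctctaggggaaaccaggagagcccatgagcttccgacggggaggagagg
Mylip: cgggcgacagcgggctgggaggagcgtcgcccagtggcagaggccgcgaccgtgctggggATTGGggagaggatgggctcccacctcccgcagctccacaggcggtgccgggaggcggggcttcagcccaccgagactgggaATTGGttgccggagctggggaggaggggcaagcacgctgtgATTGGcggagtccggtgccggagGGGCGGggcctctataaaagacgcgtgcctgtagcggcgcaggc
The sterol element stood in the promoter of 1 of the 23 members with an entry, Hmgcs1, where its first base lies 137 bases before the start (-137). Of all 32851 promoters of this length, 1.05% held it, and 1.22% of all genes had it in at least 1 promoter. Only this motif was searched for, so sterol elements of another sequence or outside the 250 bases would be missed. A gene can have several promoters, and the 23 members had 31, of which 1 (3.23%) held the sterol element. CCAAT stood in 22 of the 31 (71.0%), against 33.8% of all promoters, and in at least 1 promoter of 21 of the 23 members (all but Acat2 and Scap), against 37.5% of all genes. GGGCGG stood in 24 of the 31 (77.4%), against 32.7% of all promoters, and in at least 1 promoter of 21 members (all but Ggps1 and Pmvk), against 35.4% of all genes. The shares of all promoters and genes include genes that were not tested in these cells. Shares over the 13258 tested genes alone were not counted, so the differences cannot be set down to the pathway. Pmvk and Mylip, which were lower in preadipocytes, hold CCAAT as Hmgcs1 does, so that the motif did not separate the members by direction. Fdps, Fdft1, Sqle, Stard4 and Npc1 had no entry.

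The libraries held 6872 to 16220 barcodes and 79801002 to 100846072 UMIs, and any pair shared 52 to 81 barcodes. After cells with at most 500 genes or at least 5% mitochondrial UMIs were left out, the median cell had 6667 to 12192.5 UMIs. The classes held 3169 to 9273 progenitors, 1394 to 2278 preadipocytes and 270 to 404 regulatory cells per mouse. In mice 1, 2 and 3, 2988, 1348 and 3517 kept cells met no class (23.0%, 21.0% and 23.2%). Pdgfra, the receptor that marks fibroblast-like progenitors, was at 291 to 505 CPM in all 3 classes. The pan-leukocyte marker Ptprc was at 4.21 CPM or less and the adipocyte hormone gene Adipoq at 0.383 CPM or less. All 28 members passed the filter on low counts and were tested.

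Preadipocytes carried more of the pathway than progenitors did. The members together took 0.148%, 0.129% and 0.150% of all UMIs in preadipocytes of mice 1, 2 and 3, against 0.0722%, 0.0715% and 0.0748% in progenitors. The 3 preadipocyte values were all above the 3 progenitor values, by 2.05, 1.80 and 2.00 times within a mouse. Cells of no class lay between them in each mouse, at 0.113%, 0.0896% and 0.0975%. Hmgcs1 was at 210, 98.6 and 162 CPM in those cells, so that higher levels were not confined to the preadipocyte class. Over the 9 sums of 3 classes and 3 mice, edgeR's quasi-likelihood test with the mouse as a block called 18 members higher in preadipocytes and 6 lower, at a Benjamini-Hochberg adjusted p under 0.05, and 4 did not pass. The same fit called 27.2% of all 13258 genes higher and 29.2% lower, so that 64.3% of members against 27.2% of genes stood on the higher side and 21.4% against 29.2% on the lower. The median log2 fold change of the members was 0.70, and that of all genes 0.004. Levels of Idi1, Sqle, Hmgcs1 and Cyp51 in preadipocytes were in view when the members were chosen. The summed share of UMIs, its ratios and the shares of members called are therefore not independent of that choice. Neither are the tests of those 4 genes given below. Hmgcs1 alone was at a mean of 60.8 CPM in progenitors and 287 CPM in preadipocytes, of 728 and 1422 CPM for all members. Of the 18, 14 had all 3 preadipocyte values above all 3 progenitor values. That count was not made over all genes, so the 14 have no share to be set against.

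**Figure D1:**
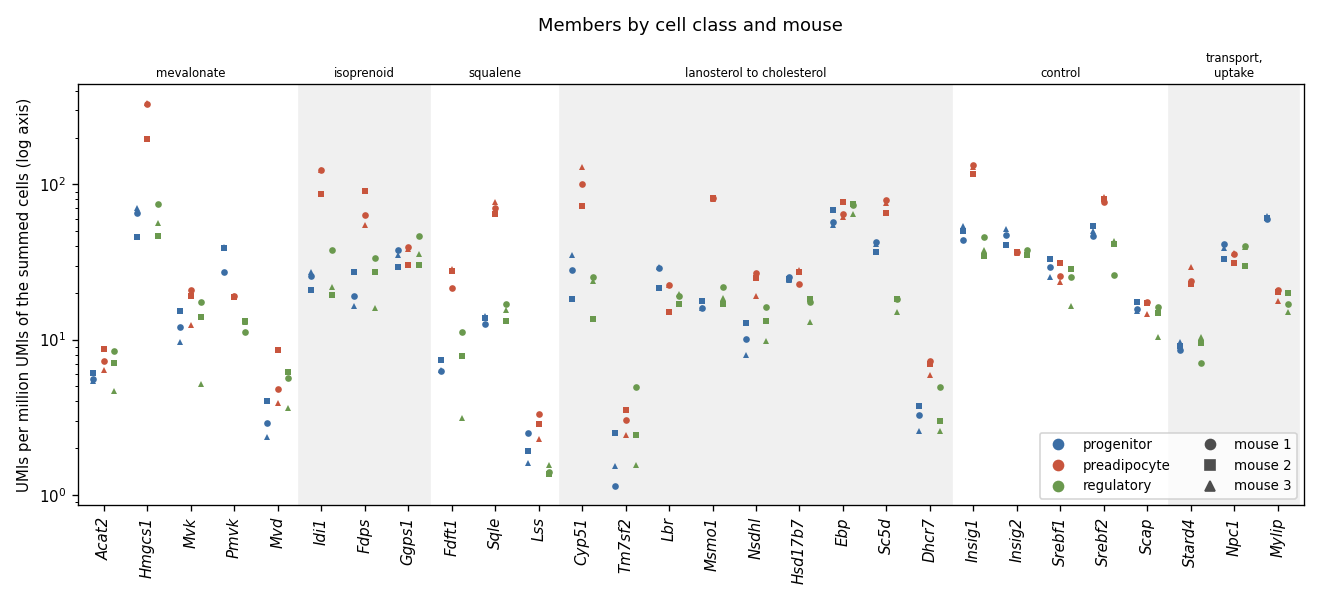
Level of each of the 28 genes in CPM on a log axis, 1 point per mouse and class, with the genes ordered by pathway step. Hmgcs1, Idi1, Sqle and Msmo1 stand well above the other classes in preadipocytes of every mouse, while Mylip and Pmvk stand above them in progenitors.

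The steps to mevalonate and the isopentenyl units were led by Hmgcs1, the synthase that makes HMG-CoA. Hmgcs1 was at 65.5, 46.1 and 71.0 CPM in progenitors and at 330, 197 and 334 CPM in preadipocytes. The lowest preadipocyte value was above the highest progenitor value, and the log2 fold change was 2.17 (SE 0.082, adjusted p = 5.22e-10). Acat2, the thiolase of the first step, Mvk, the mevalonate kinase, and Mvd, the decarboxylase that makes isopentenyl diphosphate, were raised by less, at log2 fold changes of 0.33, 0.44 and 0.82. Acat2 did not pass without mouse 1, 2 or 3 (0.36, 0.26 and 0.40, adjusted p = 0.0560, 0.208 and 0.0507). Pmvk, the phosphomevalonate kinase between Mvk and Mvd, went the other way. It was at 27.2, 38.7 and 39.4 CPM in progenitors and at 19.0, 18.9 and 19.0 CPM in preadipocytes. All 3 preadipocyte values were below the progenitor values, with a log2 fold change of -0.92 (SE 0.093, adjusted p = 3.78e-06).

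Of the isoprenoid genes, Idi1, the isomerase of isopentenyl diphosphate, was at 25.8, 20.9 and 27.3 CPM in progenitors and 124, 87.0 and 124 CPM in preadipocytes. The groups did not overlap, and the log2 fold change was 2.11 (SE 0.089, adjusted p = 1.2e-09). Fdps, which joins the units into farnesyl diphosphate, was at 19.2, 27.3 and 16.5 CPM in progenitors and 63.9, 91.3 and 54.4 CPM in preadipocytes. Its log2 fold change was 1.68 (SE 0.091, adjusted p = 1.28e-08). Ggps1, which draws farnesyl diphosphate off to geranylgeranyl diphosphate and away from sterols, had overlapping groups, with 37.9, 29.4 and 35.3 CPM in progenitors against 39.8, 30.3 and 38.6 CPM in preadipocytes. The 95% interval of its log2 difference ran from -0.11 to 0.17.

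The genes that commit farnesyl diphosphate to sterols all rose. Fdft1, squalene synthase, was at 6.30, 7.35 and 6.37 CPM in progenitors and at 21.4, 27.8 and 28.4 CPM in preadipocytes (log2 fold change 1.89, SE 0.153, adjusted p = 4.54e-07). Sqle, squalene epoxidase, an oxygen-dependent control point of the pathway, was at 12.7, 13.8 and 14.3 CPM in progenitors and at 70.4, 64.0 and 77.5 CPM in preadipocytes. Every preadipocyte value was far above the progenitor values, and the means differed 5.21-fold (adjusted p = 8.69e-11). Lss, which closes the ring to lanosterol, was at 1.60 to 2.51 CPM in progenitors and 2.28 to 3.31 CPM in preadipocytes (log2 fold change 0.44, adjusted p = 0.0484). Without mouse 1, 2 or 3 Lss did not pass (adjusted p = 0.130, 0.192 and 0.132).

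From lanosterol to cholesterol, 6 of 9 members were higher in preadipocytes, 1 was lower and 2 did not pass. Cyp51, the lanosterol demethylase, was at 27.9, 18.2 and 35.1 CPM in progenitors and at 99.97, 72.3 and 130 CPM in preadipocytes, with a log2 fold change of 1.85 (SE 0.068). Msmo1, which removes the methyl groups next, was at 15.9, 17.6 and 15.96 CPM in progenitors and 81.2, 82.1 and 80.9 CPM in preadipocytes. Its groups were tight in all 3 mice, and its log2 fold change was 2.25 (SE 0.067, adjusted p = 8.89e-11). Its partner in the same removal, the dehydrogenase Nsdhl, was at 10.0, 12.8 and 7.95 CPM in progenitors and at 26.8, 24.9 and 19.0 CPM in preadipocytes. The log2 fold change of Nsdhl was 1.16 (SE 0.105), and those of Sc5d and Dhcr7, which shape the double bonds of the ring near the end, were 0.82 (SE 0.062) and 1.02 (SE 0.137).

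The reductase step that follows Cyp51 is shared by Tm7sf2 and Lbr, and the pair split. Tm7sf2 was at 1.13, 2.502 and 1.52 CPM in progenitors and 3.04, 3.501 and 2.43 CPM in preadipocytes, which overlap between mice (log2 fold change 0.78, adjusted p = 0.0195). It did not pass without mouse 1 or without mouse 3 (adjusted p = 0.0857 and 0.0602), and its exons overlap those of Vps51 on the same strand, which leaves its counting uncertain. Lbr, which is also a receptor for lamin B in the inner nuclear membrane, was at 28.8, 21.4 and 29.3 CPM in progenitors and 22.3, 15.0 and 22.4 CPM in preadipocytes. It was lower in each mouse (log2 fold change -0.47, SE 0.070, adjusted p = 9.6e-05). Hsd17b7 and Ebp, a reductase and an isomerase of the same stretch, had log2 differences of 0.02 (95% interval -0.16 to 0.21) and 0.11 (-0.02 to 0.25).

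The control genes moved in both directions. Insig1 was at 44.0, 49.9 and 53.8 CPM in progenitors and 134, 117 and 129 CPM in preadipocytes, with no overlap (log2 fold change 1.31, SE 0.084, adjusted p = 5.65e-08). Its relative Insig2 was at 47.5, 40.9 and 51.3 CPM in progenitors and 36.8, 36.4 and 36.4 CPM in preadipocytes, also with no overlap but in the other direction (log2 fold change -0.40, SE 0.070, adjusted p = 0.000405). Srebf2 was at 46.4, 54.1 and 50.2 CPM in progenitors and 77.3, 81.1 and 82.7 CPM in preadipocytes (log2 fold change 0.63, SE 0.071, adjusted p = 1.08e-05). Srebf1, whose products act mainly on fatty acid genes, was lower by a small amount (log2 fold change -0.19, adjusted p = 0.0399) and did not pass without mouse 1, 2 or 3 (adjusted p = 0.294, 0.0962 and 0.117). Scap, the escort, had a log2 difference of -0.03 with a 95% interval from -0.24 to 0.17.

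Of the genes of transport and uptake, Stard4, a carrier of sterols between membranes and itself an SREBP target, was at 8.55, 9.15 and 9.67 CPM in progenitors and 23.96, 22.7 and 29.3 CPM in preadipocytes. Its groups did not overlap (log2 fold change 1.41, SE 0.093, adjusted p = 6.88e-08). Mylip, a ubiquitin ligase that removes lipoprotein receptors and is switched on by the sterol-sensing liver X receptors, was at 59.9, 61.0 and 62.2 CPM in progenitors and 20.9, 20.1 and 17.8 CPM in preadipocytes. It fell furthest of the 6 that fell, with a log2 fold change of -1.69 (SE 0.074, adjusted p = 1.67e-09). Npc1, the protein that lets cholesterol out of lysosomes, was slightly lower (log2 fold change -0.19, adjusted p = 0.0222) and did not pass without mouse 1 or 3 (adjusted p = 0.232 and 0.0927).

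**Figure D2:**
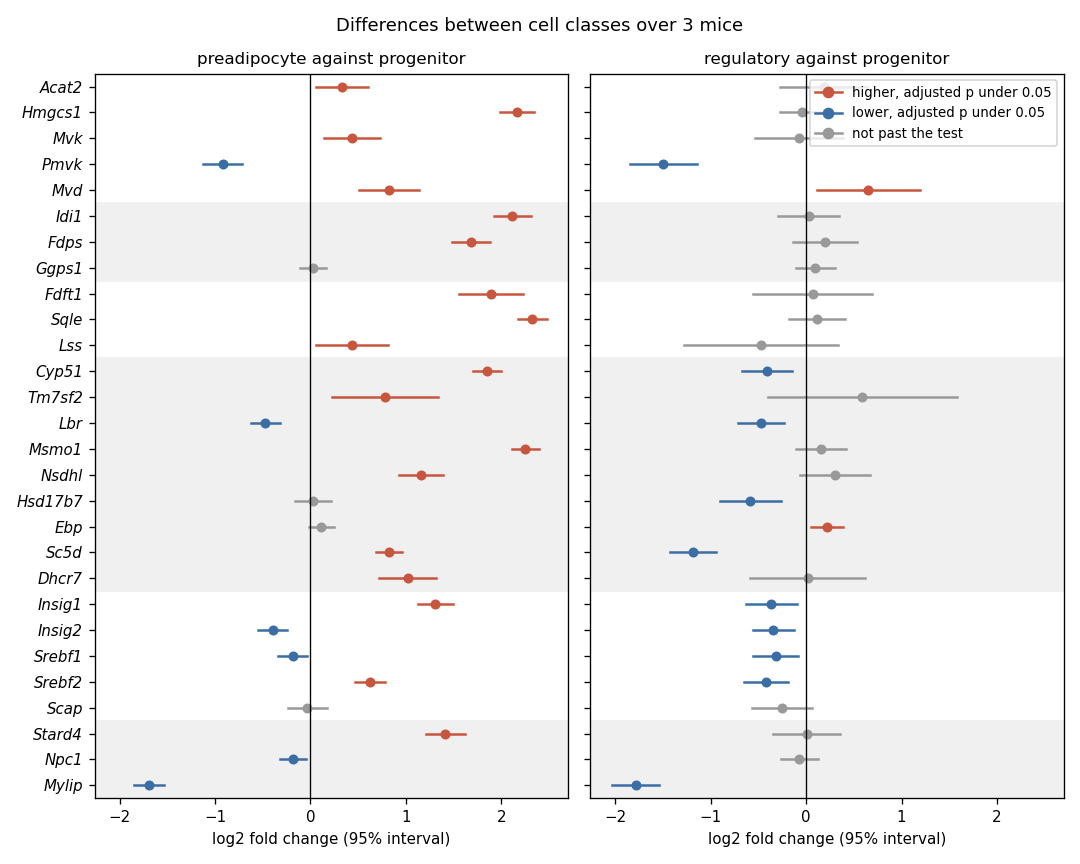
Log2 fold change of each of the 28 genes with its 95% interval from edgeR, for preadipocytes against progenitors and regulatory cells against progenitors. Sqle reaches 2.33 and Mylip -1.69 in the first comparison, while the intervals of Hmgcs1, Idi1 and Sqle lie across 0 in the second.

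Summed by step, squalene and lanosterol synthesis differed most between the classes. Its 3 genes together were at 21.5, 23.0 and 22.2 CPM in progenitors and 95.1, 94.7 and 108 CPM in preadipocytes, a ratio of 4.43, 4.11 and 4.86 within a mouse. The ratio was 3.37, 2.29 and 2.94 for the mevalonate genes and 2.74, 2.69 and 2.74 for the isoprenoid genes. From lanosterol to cholesterol it was 1.92, 1.82 and 2.01, and for the control genes 1.59, 1.45 and 1.46. The transport and uptake genes were below 1 in each mouse, at 0.736, 0.716 and 0.752. The sums are descriptions without a test, and each is weighted towards its most counted member. In the mevalonate step Hmgcs1 made a mean of 60.8 of 117 CPM in progenitors and 287 of 337 CPM in preadipocytes. The ratio of that step thus rests on Hmgcs1 and does not describe its other genes, of which Pmvk was lower in preadipocytes.

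**Figure D3:**
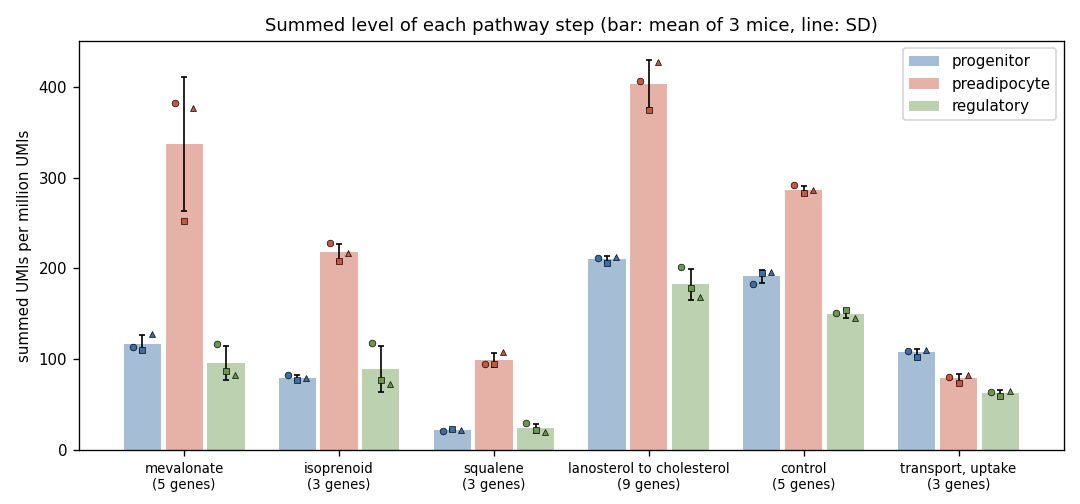
Summed CPM of the members of each pathway step in the 3 classes, with bars for the mean of 3 mice, points for the mice and error bars for the SD. Preadipocytes are highest in every step except transport and uptake, where the progenitors stand highest at 103 to 111 CPM. The height of the mevalonate step in preadipocytes rests on Hmgcs1.

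Several other readings moved with the preadipocyte class. Cells with at least 2 UMIs of markers of other cell types made up 14.9%, 24.4% and 17.2% of preadipocytes, against 5.14%, 7.42% and 4.83% of progenitors. Of 5 endothelial markers 4 were higher in preadipocytes, with a summed level of 3.17 to 51.0 CPM against 2.502 to 8.39 CPM. Of 5 mural markers 4 were higher and 1, Kcnj8, was lower, at a summed 61.5 to 88.5 CPM against 15.2 to 25.04 CPM. Much of the mural sum was Abcc9, at 42.4, 34.6 and 61.7 CPM in preadipocytes and 9.58, 9.12 and 17.0 CPM in progenitors. Immediate early and heat shock genes, which tissue dissociation raises, were summed over 14 genes to 22282 to 26847 CPM against 13773 to 17732 CPM, with 10 of them higher and 2 lower. Without the cells with other markers 17 members were higher and 5 lower, beside 3491 and 3747 of 12816 genes. Without the 25% of cells with the most dissociation reads 18 members were higher and 4 lower, beside 3238 and 3258 of 12464 genes. That 25% was taken over all kept cells of a mouse and cut the classes unequally. It left 1182, 923 and 887 of 2278, 1394 and 1889 preadipocytes. Of 7399, 3169 and 9273 progenitors it left 6373, 2634 and 7979.

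In regulatory cells the members took 0.0681%, 0.0579% and 0.0555% of UMIs, which in each mouse was less than in progenitors (0.943, 0.809 and 0.742 times). Against progenitors 2 members were higher, 10 were lower and 16 did not pass, where 18.9% of all genes were called higher and 24% lower. That is 7.14% and 35.7% of members, and their median log2 fold change was -0.05, beside -0.05 for all genes. The genes that rose most in preadipocytes did not pass here. Hmgcs1 was at 74.4, 46.8 and 56.3 CPM in regulatory cells, with a log2 difference of -0.04 from progenitors (95% interval -0.27 to 0.19). For Idi1 the difference was 0.03 (-0.29 to 0.35), and for Sqle it was 0.12 (-0.17 to 0.41).

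Among the 10 lower members, Mylip was at 16.8, 20.0 and 15.0 CPM (log2 fold change -1.79, SE 0.114), Pmvk at 11.2, 13.3 and 12.9 CPM (-1.50, SE 0.162) and Sc5d at 18.3, 18.4 and 15.0 CPM (-1.18, SE 0.110). None of these values overlapped those of progenitors, and each of the 3 genes passed under all 16 other settings. Sc5d was thus lowest in regulatory cells, middling in progenitors at 36.7 to 42.3 CPM and highest in preadipocytes at 65.6 to 79.1 CPM, without overlap. Mylip and Pmvk were lower than in progenitors in both other classes. The other 7 lower members were Cyp51, Lbr, Hsd17b7, Insig1, Insig2, Srebf1 and Srebf2, at log2 fold changes between -0.59 for Hsd17b7 and -0.32 for Srebf1. Insig1 was lower in 2 of 3 mice. Srebf2, the regulator itself, was at 26.0, 41.4 and 43.4 CPM (log2 fold change -0.42, adjusted p = 0.0064). The 2 higher members were Mvd (0.65, adjusted p = 0.0499) and Ebp (0.22, adjusted p = 0.0385).

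With 270 to 404 regulatory cells per mouse these calls often rested on all 3 mice. Without mouse 1, 2 or 3 the number of lower members was 8, 6 and 4, and the number of higher members was 0, 1 and 0. Over all genes 2496, 2236 and 2357 were then called lower, in place of 3182. The genes called higher were then 2294, 1972 and 1816, in place of 2511. Mvd did not pass without any one mouse (adjusted p = 0.142, 0.134 and 0.117), nor did Srebf1 (0.0894, 0.0971 and 0.209). Ebp (0.119 and 0.144) and Insig2 (0.0659 and 0.0969) did not pass without mouse 1 or 3. Cyp51 (0.0983 and 0.148) and Insig1 (0.314 and 0.193) did not pass without mouse 2 or 3. Lbr (0.0648) and Hsd17b7 (0.0503) did not pass without mouse 3, nor Srebf2 without mouse 2 (0.0558). Dissociation genes were also higher in regulatory cells than in progenitors, at 23232 to 25068 CPM, with 10 of 14 called higher. Of 5 mural markers 3 were higher there, at a summed 48.4 to 98.2 CPM against 15.2 to 25.04 CPM. Most of that sum was Abcc9, at 39.3, 39.2 and 78.0 CPM in regulatory cells, where the mural marker Rgs5 was at 0.702, 0.541 and 1.55 CPM. The 5 epithelial markers summed to 0 to 105 CPM against 5.40 to 16.1 CPM, with Epcam at 35.1 CPM, Krt18 at 39.3 CPM and Krt19 at 31.0 CPM in mouse 3. The 6 leukocyte markers summed to 11.4 to 13.3 CPM against 2.11 to 4.56 CPM, and 1 of the 3 tested was called higher. Most of that sum was Csf1r, at 8.42, 9.74 and 8.78 CPM in regulatory cells and 0.632, 1.64 and 0.373 CPM in progenitors. Cells with at least 2 UMIs of markers of other cell types made up 7.41%, 15.9% and 12.9% of regulatory cells, against 5.14%, 7.42% and 4.83% of progenitors. Without such cells 1 member was higher and 8 were lower, beside 2382 and 2924 of 12816 genes.

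Set directly against regulatory cells, preadipocytes had 15 members higher and none lower, and 13 did not pass. Of all genes 13.4% were called higher and 12.3% lower, against 53.6% and 0% of members. The count of lower members was also 0 at an unadjusted p under 0.05 in edgeR and 0 in DESeq2, which called 15 higher. Over all 13258 genes DESeq2 called 1390 higher and 1701 lower. The log2 fold changes were 2.26 for Cyp51, 2.21 for Hmgcs1 and Sqle, 2.097 for Msmo1, 2.08 for Idi1 and 2.00 for Sc5d, with SEs of 0.101 to 0.132. Insig1 (1.67, SE 0.118), Stard4 (1.41, SE 0.152) and Srebf2 (1.04, SE 0.103) were also higher. Pmvk, lower in preadipocytes than in progenitors, was higher in them than in regulatory cells (0.58, adjusted p = 0.0324) and did not pass without mouse 2 or 3 (adjusted p = 0.151 and 0.0833). Hsd17b7 (0.0617 and 0.105) and Dhcr7 (0.196 and 0.0768) did not pass without those mice either. This comparison shares its preadipocyte and regulatory sums with the comparisons above. Its shares of members called, and the tests of Cyp51, Hmgcs1, Sqle and Idi1, also depend on how the members were chosen.

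Cells of a class differed among themselves. When each cell was thinned to 3000 UMIs, which left out 35 to 67 preadipocytes and 63 to 803 progenitors per mouse, and 61, 42 and 109 of the 270, 384 and 404 regulatory cells, a preadipocyte had a mean of 4.50, 3.90 and 4.50 UMIs of the members together and a progenitor 2.15, 2.20 and 2.27. The variance of that number was 3.48, 3.20 and 4.68 times its mean in preadipocytes, against 1.50, 1.70 and 1.64 times in progenitors and 1.44, 1.36 and 1.52 times in regulatory cells. Among preadipocytes 1 cell in 10 had at least 9, 8 and 10 member UMIs. Members were thus spread less evenly over preadipocytes than over the other classes in all 3 mice, by a measure that can itself grow with the mean.

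Hmgcs1 was used to ask which members share that spread within a class, a split added after the data had been seen. Hmgcs1, Idi1, Sqle and Cyp51 had led the same cluster of preadipocytes in these libraries when the members were chosen. The shares of members in this split, in preadipocytes and in progenitors, are therefore not independent of that choice. In thinned preadipocytes, 514, 190 and 382 cells with at least 2 UMIs of Hmgcs1 were set against 1258, 892 and 1049 cells with none. Of the 27 other members, 15 were higher in the Hmgcs1-rich cells of all 3 mice and 2 were lower. At a level of at least 5 CPM, 60% of 25 members were higher in all 3 mice and 4% lower, while 12.8% of 9222 genes at that level were higher and 24.1% lower. Idi1 was at 277, 282 and 324 CPM in Hmgcs1-rich cells against 60.4, 44.5 and 60.4 CPM, and Cyp51 at 189, 174 and 317 CPM against 61.5, 37.7 and 67.0 CPM. Both sets of values were far apart. The ratios were 3.62, 3.33 and 3.99 for Sqle, 3.23, 3.26 and 4.42 for Msmo1 and 2.5, 2.85 and 3.32 for Insig1. Srebf2 differed less, at 1.34, 1.75 and 1.68 times. Ggps1 was lower in each mouse, with ratios of 0.864, 0.437 and 0.845.

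Progenitors, in which the pathway was lower, showed a like split. Of the 27 other members, 17 were higher in Hmgcs1-rich progenitors of all 3 mice and 2, Insig2 and Mylip, were lower. At the same level that was 68% and 8% of 25 members, against 17.4% and 15.2% of 9170 genes. Idi1 was at 138, 158 and 141 CPM in Hmgcs1-rich cells and 20.1, 15.9 and 21.2 CPM in cells without Hmgcs1. Mylip was at 39.7, 24.2 and 49.8 CPM against 61.4, 61.8 and 66.4 CPM, and Insig2 at 34.5, 30.3 and 38.7 CPM against 47.0, 43.6 and 50.4 CPM. Both genes were also lower in preadipocytes than in progenitors. The Hmgcs1-rich progenitors were few, at 193, 55 and 241 cells, and the values of mouse 2 rest on small counts. No test was made within the classes, since cells of 1 mouse are not replicates.

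**Figure D4:**
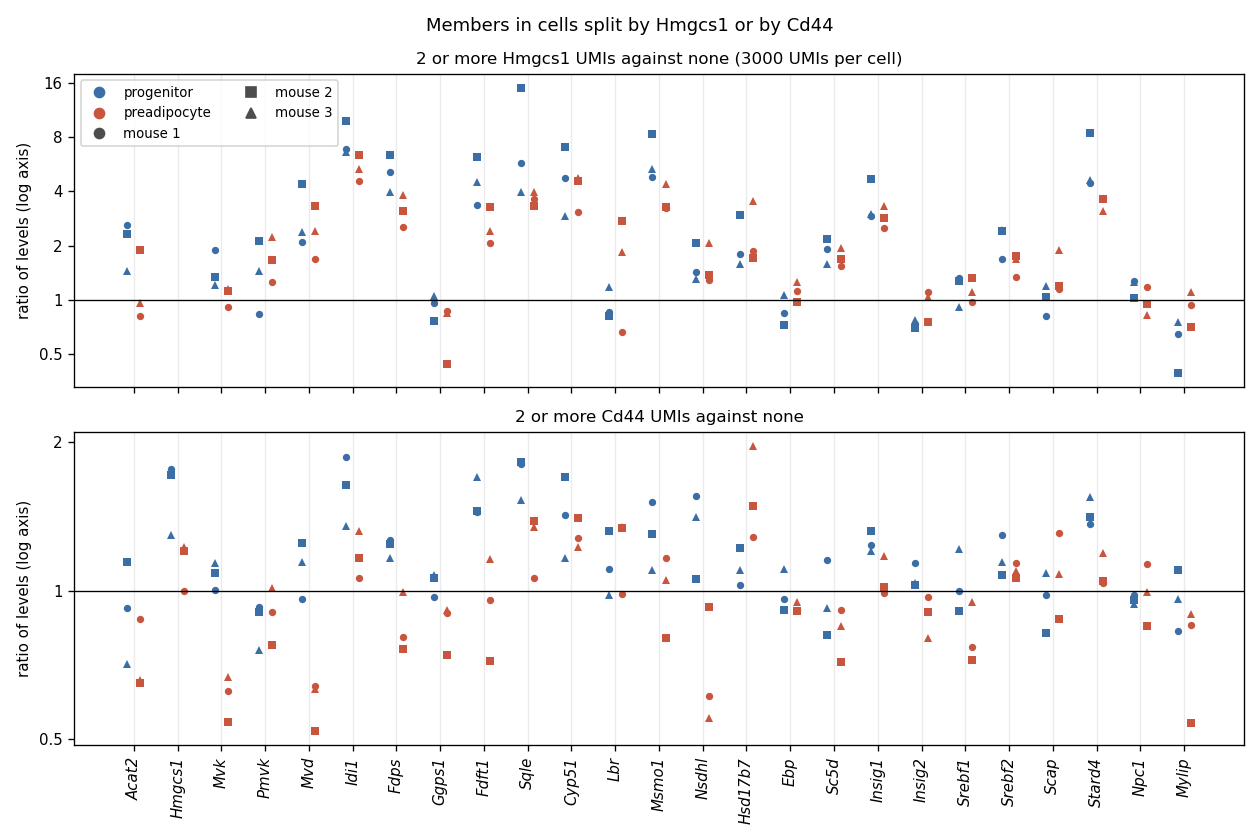
Ratio of the members' levels (Lss, Tm7sf2 and Dhcr7 are not drawn) between cells rich in Hmgcs1 (at least 2 UMIs after thinning) and cells with none, and between cells with at least 2 Cd44 UMIs and cells with none, on a log axis with 1 point per mouse. Idi1 stands at 4.58 to 6.35 in preadipocytes split by Hmgcs1 and at 1.06 to 1.32 in preadipocytes split by Cd44.

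Cd44, the hyaluronan receptor, was among the markers of the groups into which the study divided Icam1+ preadipocytes. The members were chosen with that division known. The study found the groups by clustering and sorted cells by ICAM1 and CD44 protein. Here Cd44 UMIs alone made the split, which is a different division. In preadipocytes, 294, 312 and 324 cells with at least 2 Cd44 UMIs were set against 1557, 756 and 1157 cells with none. Noct and Txnip, other markers of the study's groups, were at 2.31 and 0.318 times the level in the Cd44-rich cells (ratios of means). Of the 28 members, 6 were higher in the Cd44-rich cells of all 3 mice (Idi1, Sqle, Cyp51, Hsd17b7, Srebf2 and Stard4), 12 were lower in all 3 and 10 were mixed. At a level of at least 5 CPM, 23.1% of 26 members were higher and 46.2% lower, beside 20.1% and 35.8% of 9241 genes. Cyp51 was at 122, 89.0 and 145 CPM in Cd44-rich cells against 95.2, 63.3 and 118 CPM, and Hsd17b7 at 27.5, 37.6 and 46.0 CPM against 21.3, 25.2 and 23.5 CPM. Hmgcs1 was at 344, 219 and 391 CPM against 345, 182 and 319 CPM, which is higher in 2 of 3 mice. The 12 lower members included Mvk, Mvd, Fdps and Nsdhl. Mvd was at 3.34, 5.86 and 2.83 CPM in Cd44-rich cells against 5.21, 11.3 and 4.47 CPM. When the cells were first thinned, 7 members were higher and 5 lower, with 68, 61 and 104 Cd44-rich cells. No share over all genes was counted for thinned cells.

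In progenitors the same split had more members on the higher side, with 15 higher in all 3 mice, 2 lower (Pmvk and Npc1) and 11 mixed. At the same level 58.3% of 24 members were higher and 8.33% lower, against 26.1% and 16.4% of 9205 genes. Hmgcs1 was at 103, 70.2 and 86.7 CPM in Cd44-rich progenitors and 58.6, 40.9 and 66.8 CPM in progenitors without Cd44. Idi1 was at 42.9, 30.4 and 34.8 CPM against 23.0, 18.6 and 25.8 CPM. Both genes were higher in every mouse. In regulatory cells 3 members were higher in all 3 mice, 3 were lower and 22 were mixed. At the same level that was 12.5% and 8.33% of 24 members, against 14.1% and 20.6% of 9262 genes. After thinning, 8 members were higher and 2 lower in progenitors, and 1 was higher and 11 lower in regulatory cells. The thinned Cd44-rich cells numbered 150, 42 and 233 progenitors but only 7, 31 and 18 regulatory cells. Counts of single members in those regulatory cells were small. Shares over all genes were not counted after thinning. The median Cd44-rich progenitor had 8333.5, 13447.5 and 7566 UMIs, against 7194.5, 11769 and 6519.5 in progenitors without Cd44, and the part of depth in the split was not tested beyond the thinning.

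The share of UMIs taken by the members did not step at the limits that define the classes. Among cells with at most 1 Dpp4 UMI, it was 0.101%, 0.0795% and 0.0810% in those without Icam1 or Fabp4 UMIs and 0.154%, 0.138% and 0.159% in those with 16 or more. Just outside the preadipocyte limit, at 3 UMIs, it was 0.139%, 0.0977% and 0.110%, and just inside, at 4, it was 0.126%, 0.0912% and 0.121%. On the progenitor side, among cells with at most 1 UMI of Icam1 and Fabp4, it was 0.113%, 0.0841% and 0.0995% at 2 UMIs of Dpp4 and Pi16 and 0.113%, 0.0850% and 0.0883% at 3. Beyond that limit it did not fall evenly. It was highest at 4 UMIs in mouse 3, at 0.106%, and at 8 to 15 UMIs in mouse 2, at 0.0983%. In cells with 16 or more, which were most of those cells, it was 0.0689%, 0.0691% and 0.0733%.

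**Figure D5:**
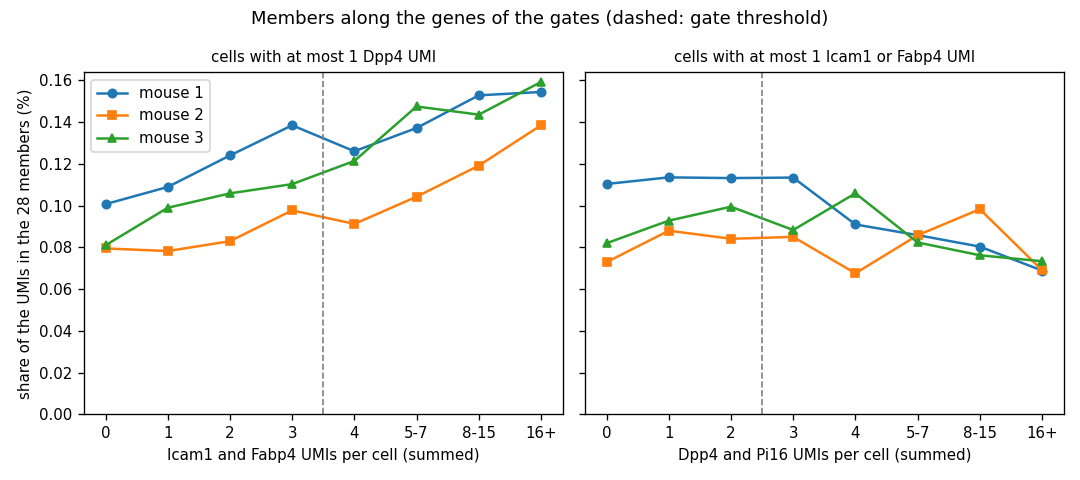
Percent of all UMIs taken by the 28 genes, by the UMIs of Icam1 and Fabp4 per cell (left) and of Dpp4 and Pi16 per cell (right), 1 line per mouse, with the class limit dashed. In the left panel the share is higher at 16 or more UMIs than at 0 in each mouse. In the right panel the lines go up and down in mice 2 and 3, and at 16 or more UMIs they come together at 0.0689% to 0.0733%.

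Genes around the pathway were followed in 4 other lists. For their counts in preadipocytes against progenitors, 27.2% of all genes were called higher and 29.2% lower. Of 10 genes for cutting and degrading SREBP, 1 was higher in preadipocytes than in progenitors and 3 were lower. Sec24a, of the coat that carries SCAP to the Golgi, was the higher one (log2 fold change 0.51), and Erlin1, Mbtps1 and Erlin2 were the lower ones (-0.55, -0.43 and -0.28). Mbtps1 makes the first of the cuts that free SREBP2. Of 12 genes that use isoprenoids for prenylation, ubiquinone and dolichol, 1 was higher and none was lower by edgeR (0 lower also at an unadjusted p under 0.05 and 0 by DESeq2). That gene was Fntb, a subunit of farnesyltransferase (0.40).

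Of 15 tested genes of cholesterol handling and liver X receptor response, 5 were higher and 6 lower. The highest was Cyp7b1, an oxysterol hydroxylase (3.88), followed by the lipoprotein receptor Scarb1 (1.47) and the sterol-binding Tmem97 (1.42). Cyp7b1 was near the floor in progenitors, at 0.428, 0.417 and 0.275 CPM, against 6.57, 4.27 and 6.12 CPM in preadipocytes. All of these were also higher in regulatory cells than in progenitors (4.34, 2.56 and 0.49). Against regulatory cells, Scarb1 was lower in preadipocytes (-1.09), Tmem97 was higher (0.93) and Cyp7b1 did not pass. Nceh1, a cholesteryl ester hydrolase (-1.27), Abca1, the cholesterol exporter that liver X receptors switch on (-0.92), and Cyp27a1 (-0.32) were lower. Of the genes of the liver X receptors themselves, Nr1h3 was higher (1.27) and Nr1h2 lower (-0.28). Abcg1, of the same list, did not pass (0.64). Activity of the receptors was not tested. Fatty acid and related lipid genes were divided as well, with 6 of 16 higher, led by Pcyt2 (0.81), Elovl6 (0.66) and Fasn (0.53), and 5 lower, led by the desaturase Scd1 (-1.31), Me1 (-0.80) and Scd2 (-0.52). The medians of the 4 lists were -0.14, 0.06, -0.01 and 0.15, against 0.70 for the members. In regulatory cells against progenitors, 4 of the 10 SREBP machinery genes were lower and none higher by edgeR (0 at an unadjusted p under 0.05 and 0 by DESeq2). Of the cholesterol handling genes 6 were higher there and 3 lower, and of the fatty acid genes 3 were higher and 8 lower. Of all genes 18.9% were called higher and 24% lower in that comparison.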

How the data were processed

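Droplet libraries (10x Genomics 3′ chemistry) of 3 mice were analysed. The authors deposited UMI counts for each gene in each barcode, without normalization. Cell Ranger was used (the submitters' processing notes give 2.1.1 and the build mm10, and the matrix headers give 4.0.0). Of the 32285 gene identifiers 32235 are in GENCODE's GRCm38 annotation.

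Cells had to have over 500 genes and under 5% mitochondrial UMIs. Those meeting 2 class definitions (49, 119 and 96 in mice 1, 2 and 3) were left out, and doublets were not called. Cells that met no class definition were not in the tests. Counts were summed per mouse and class and tested over 13258 genes, without the 6 genes that define the classes, in edgeR 4.0.16 (R 4.3.3, limma 3.58.1; filterByExpr, TMM and the quasi-likelihood test), with a term for the mouse and a Benjamini-Hochberg threshold of 0.05. The sums of 1 mouse come from 1 animal, and their deviations from the class means correlated with r of 0.153 to 0.676 across genes, which are not independent replicates. The classes were cut from the same cells on genes that vary with many others, and were already known to differ. With the term for the mouse, p-values rest on how far the differences among all 3 classes vary over the 3 mice, in 1 fit of the 9 sums. They also rest on the spread of other genes, from which edgeR draws in its estimate for each gene. The SEs are therefore not those of a gene's own 3 differences between 2 classes. DESeq2 1.42.0, other gates, filters and scalings, thinning and leaving out each mouse were the alternatives. The procedure was tested on simulated data.

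The members, lists and class definitions were chosen with earlier results of these data known. The members are named throughout. Of each other pathway list at most 3 genes in each direction are named, those with the largest fold change among those past the threshold in preadipocytes against progenitors. Nr1h3 and Nr1h2, which code for the liver X receptors, and Abcg1 are named besides. Splits of cells within a class were not tested. Antisense neighbours overlap exons of Hmgcs1, Ggps1, Fdft1, Lss, Cyp51, Lbr, Srebf1 and Npc1. Promoters are from RefSeq, and 23 of 28 members had an entry. Sums and tables were made with numpy 2.4.6, pandas 2.3.3 and scipy 1.17.1 under Python 3.11.15, and plots with matplotlib 3.10.9.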

Additional observations from a re-analysis of the deposited data

Results flagged for a closer look

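For 4 members the split of cells by Cd44 went opposite ways in progenitors and preadipocytes, in every mouse. Mvk was higher in Cd44-rich progenitors (log2 difference of means 0.10) and lower in Cd44-rich preadipocytes (-0.73), so that the 2 differences were -0.84 apart. For Fdps they were 0.30 and -0.26 (-0.56 apart), for Nsdhl 0.39 and -0.52 (-0.90 apart) and for Insig2 0.09 and -0.16 (-0.26 apart). Some of the differences in progenitors were very small. Mvk was at 12.4 against 12.3 CPM in mouse 1, and the ratios of Insig2 were 1.14, 1.03 and 1.04. All these values are from cells that were not thinned. These differences were not tested, and the members were chosen with the Cd44 division of preadipocytes known.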

How the results depend on the processing

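Under the 16 other settings 16 of the 24 members called between preadipocytes and progenitors passed throughout, as did 3 of the 12 between regulatory cells and progenitors and 11 of the 15 between preadipocytes and regulatory cells, and no called member changed direction. Lss and Tm7sf2 were not tested in cells thinned and then gated. Between preadipocytes and progenitors, Lss did not pass in 12 of 15 settings, Srebf1 in 10 of 16, and Acat2 and Npc1 in 9 of 16. The members higher in regulatory cells than in progenitors numbered 2. They were 1 under stricter gates, without cells with other markers, without cycling cells, without dissociation-high cells, without the deepest cells, thinned, thinned and gated, or with DESeq2, and 0 without a filter on low counts. Over all genes 1569 to 2554 were called higher under those settings, in place of 2511. With cells of 2 gates kept in both, 3 members were higher and 8 lower, beside 2727 and 3249 of 13379 genes. Leaving out 1 mouse gave 0 to 1, and the lower members, 10 before, then numbered 4 to 8. Over all genes 2236 to 2496 were then lower, in place of 3182. The lower members were 5 in cells thinned and gated, beside 1772 of 11050 genes. DESeq2 called 15 members higher and 4 lower in preadipocytes against progenitors, beside 3182 and 3466 of 13258 genes.

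Without the mouse as a block, 13 members were higher and 3 lower in preadipocytes against progenitors, 0 and 4 in regulatory cells against progenitors, and 11 and 0 in preadipocytes against regulatory cells. Over all genes the fit without the block called 1895 higher and 2100 lower in place of 3601 and 3870 in the first comparison, 1491 and 1639 in place of 2511 and 3182 in the second, and 652 and 878 in place of 1771 and 1632 in the third. At no low-count filter (21647 genes), the median log2 fold change of all genes in regulatory cells against progenitors was -0.26.

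The members lower in Cd44-rich preadipocytes of all 3 mice were 5 after thinning, in place of 12. Some members that did not pass changed sign. In preadipocytes against progenitors the log2 difference of Ggps1 was -0.0005 under stricter gates, -0.0374 without dissociation-high cells, -0.0263 thinned and -0.0539 thinned and gated. With 1 mouse left out, that of Hsd17b7 ran from -0.0412 (without mouse 3) to 0.1596 and was -0.005 without mouse 2. Scap was at 0.1168 without dissociation-high cells, 0.0779 thinned, 0.0855 thinned and gated, 0.0231 with scaling by library size alone and -0.0689 to 0.0166 with 1 mouse left out. In regulatory cells against progenitors Hmgcs1 was at 0.0152 with cells of 2 gates kept, 0.0139 without dissociation-high cells and -0.1126 to 0.0983 with 1 mouse left out. Idi1 was at -0.3347 under stricter gates, -0.1214 thinned, -0.44 thinned and gated, -0.026 without the low-count filter and -0.1719 to 0.1849 with 1 mouse left out. Sqle was at -0.2578 under stricter gates, -0.1868 thinned and -0.0531 thinned and gated. The causes were not tested.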
